A study of Homo sapiens with 4 samples.

Results

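The globin genes encode the protein chains of hemoglobin, and their messages were measured here in K562, a human erythroleukemia cell line, after exposure to a thalidomide analog. The genes examined were the alpha-type genes HBZ, HBA2, HBA1 and HBQ1, the beta-type genes HBE1, HBG1, HBG2, HBD and HBB, and AHSP, which encodes the alpha-hemoglobin stabilizing protein. They were taken by gene name from the non-control rows of each array, where AHSP is filed under its older symbol ERAF. Of these 10 genes, 9 had a probe, each with 1 probe among the 14297 gene probes of the array. HBG2 had no row of its own, and the transcripts listed for the HBG1 probe include that of HBG2, so its signal is read here as the gamma-globin message as a whole.

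Each of 4 two-colour arrays carried RNA of treated cells together with RNA of control cells, the treatment being AC-1041 for 4 h. The labels call the control untreated and give no dose, whereas the study's methods describe a DMSO vehicle and state the dose. Treated RNA carried Cy5 on arrays 1 and 2, with the control in Cy3, and the dyes were exchanged on arrays 3 and 4. Every group is the same unmodified cell line, a leukemic model of erythroid cells and not a normal red cell precursor.

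Hemoglobin is built from alpha-type chains, whose genes lie together on chromosome 16, and beta-type chains, whose genes lie together on chromosome 11. HBZ and HBE1 are the embryonic genes of these clusters, the gamma genes are fetal, and HBA1, HBA2, HBB and HBD are adult genes, switched on in turn during development. K562 cells are known for making embryonic and fetal globins and little adult beta-globin, and are widely used to follow drug effects on globin genes. AHSP binds free alpha chains and keeps them from precipitating.

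The arrays read each message with a probe 60 bases long, and the sequences bear on which of the closely related genes a value belongs to. The positions are those of the array design on hg18. The adult alpha genes HBA2 (chr16:163560-163619, plus strand) and HBA1 (chr16:167382-167441, plus strand) share the longest run of any pair of these probes, 43 bases, set in capitals. The next longest run shared by any pair was 9 bases, and the 2 adult alpha values are not independent readings. Probes were compared only with each other, so whether a probe also reads the message of a related gene was not tested. HBZ (chr16:144352-144411, plus strand), HBE1 (chr11:5247438-5247619, minus strand, a span of 182 bases, longer than the probe and so taking in an intron) and HBD (chr11:5211834-5211893, minus strand) are shown to set the embryonic and minor adult genes beside them, and AHSP (chr16:31447413-31447472, plus strand) as the chaperone. All are written 5′ to 3′, and for HBA1 the first 58 bases are given.
HBA2: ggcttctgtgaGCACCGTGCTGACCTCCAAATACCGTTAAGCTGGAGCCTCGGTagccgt
HBA1: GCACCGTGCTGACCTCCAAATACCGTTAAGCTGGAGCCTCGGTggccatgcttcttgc
HBZ: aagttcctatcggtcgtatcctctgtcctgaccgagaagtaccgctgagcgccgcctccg
HBE1: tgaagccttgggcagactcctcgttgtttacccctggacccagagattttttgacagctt
HBD: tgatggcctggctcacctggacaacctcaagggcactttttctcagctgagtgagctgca
AHSP: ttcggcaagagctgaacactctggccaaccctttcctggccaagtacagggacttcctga

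The remaining probes lay at chr16:170574-170717 on the plus strand for HBQ1, theta-globin, whose span of 144 bases again takes in an intron, and on the minus strand at chr11:5226110-5226169 for HBG1 and chr11:5203294-5203353 for HBB.

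A single slide held the 4 arrays, and a single scan date is recorded for them. From 5941 to 9515 gene probes were well above background per channel, and more of them on arrays 3 and 4 than on arrays 1 and 2. The SD of the negative control spots was 226 to 308 on arrays 1 and 2 and 27.8 to 40.5 on arrays 3 and 4. Each dye orientation therefore coincides with 1 level of background spread, and the 2 cannot be told apart. The treated-over-control ratios correlated with r = 0.81 between arrays 1 and 2 and r = 0.94 between arrays 3 and 4, but with r from -0.29 to -0.12 between arrays of opposite orientation, over at least 8011 probes that share these arrays. Results are accordingly given for each orientation as well as for all arrays. The study's methods describe quadruplicates, but not which RNA sample went on which array, so p-values measure only the spread between these arrays, which may be technical. Of 8 erythroid marker genes, 7 were well above background in control RNA on all 4 arrays and TAL1 on 3. Of the markers of other blood cells, the platelet genes PF4 and PPBP, the monocyte gene CSF1R and the B cell gene MS4A1 were above background on none, while GP9, LYZ and CD79A were so in both channels on all 4.

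The direction of the treated-over-control ratio changed with the dye orientation for most of these genes. With treated RNA in Cy5 the treated-over-control ratio was higher for 5 of the 8 tested members, HBE1, HBG1, HBZ, HBA1 and HBA2, and with treated RNA in Cy3 the ratio of the same 5 genes was lower. Averaged over both orientations, none of the 5 passed limma's test for a difference between treated and control cells. HBD and AHSP were the genes lower over all arrays, and HBB was low in signal and passed the test in neither orientation in the main fit.

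The embryonic beta-type gene HBE1 gave spots of 282926 in treated and 53665 in control RNA on array 1, and of 313649 and 49584 on array 2. On array 3 the treated spot read 45777 and the control spot 290565, and on array 4 they read 32189 and 242250. The bright spot was thus the Cy5 spot on every array, whichever RNA it carried. After normalization, the log2 ratios of treated over control were 1.72, 1.67, -1.71 and -1.81 for arrays 1 to 4. Both Cy5 arrays lay well above 0 and both Cy3 arrays equally far below it, with no overlap between the orientations. The fitted log2 ratio was 1.69 with treated RNA in Cy5 (SE 0.0916, adjusted p = 3.3e-05) and -1.76 with treated RNA in Cy3 (SE 0.0916, adjusted p = 7.3e-06). Over all arrays the log2 ratio was -0.03 ± 2.00 (SD, n = 4), with a fitted 95% interval of -0.18 to 0.11 and an adjusted p of 0.710.

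The gamma-globin probe, HBG1, showed the widest swing. Its treated and control spots read 219675 and 53099 on array 1, and 239401 and 30376 on array 2. They read 42392 and 291223 on array 3, and 30145 and 297995 on array 4. Here too the brighter spot was in Cy5 on each array. The log2 ratios were 1.41, 2.07, -1.84 and -2.17 on arrays 1 to 4, which split by orientation without overlap. With treated RNA in Cy5 the treated-over-control ratio was 3.34-fold higher (log2 1.74, SE 0.156, adjusted p = 0.00013). With treated RNA in Cy3 the ratio was 4.02-fold lower (log2 -2.01, SE 0.156, adjusted p = 2.8e-05). Over all arrays the log2 ratio was -0.13 ± 2.18 (SD, n = 4, adjusted p = 0.375). Without array 2 that ratio was -0.30 and passed the test (adjusted p = 0.0133), and with median centring in place of loess it was -0.34 (adjusted p = 0.0198).

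**Figure D1:**
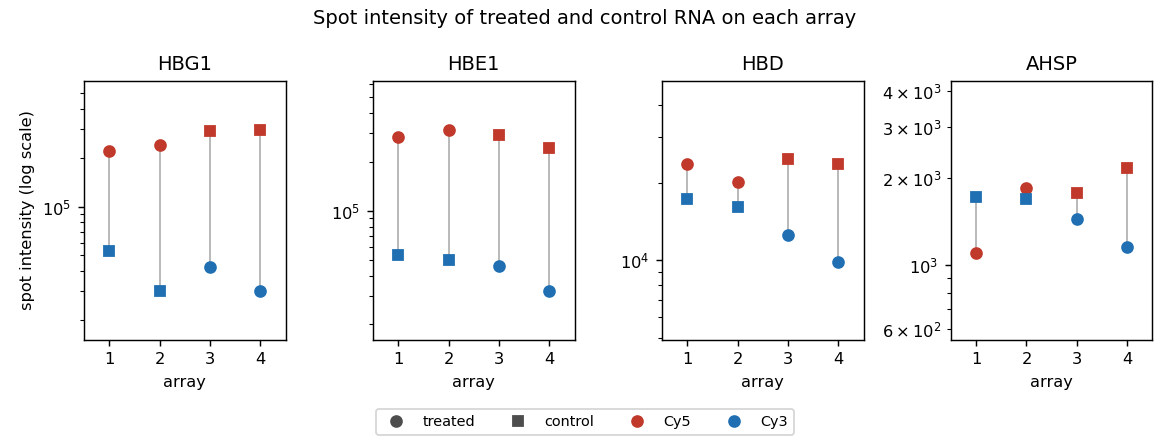
Spot intensity before background correction, on a log axis in scanner units, of treated (circles) and control RNA (squares) on arrays 1 to 4 for HBG1, HBE1, HBD and AHSP, with Cy5 in red and Cy3 in blue. For HBG1 and HBE1 the Cy5 spot was the brighter on all 4 arrays, whether it held treated or control RNA, while the AHSP spots lay between 1097 and 2164.

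The embryonic alpha-type gene HBZ read from 298846 to 324051 in Cy5 and from 56726 to 107169 in Cy3 over the 4 arrays. Its log2 ratios were 0.92, 1.07, -0.31 and -1.13 on arrays 1 to 4. The arrays with treated RNA in Cy5 were both above 0, and arrays 3 and 4 were both below it but lay far apart. The ratio was 1.99-fold higher with treated RNA in Cy5 (log2 0.99, SE 0.169, adjusted p = 0.00229) and 1.64-fold lower with treated RNA in Cy3 (log2 -0.72, SE 0.169, adjusted p = 0.00684). Over all arrays it was 0.14 ± 1.04 (SD, n = 4, adjusted p = 0.398), with a fitted 95% interval of -0.13 to 0.41. With Feature Extraction's processed signals HBZ passed the test in neither orientation (log2 0.38, adjusted p = 0.196, and -0.39, adjusted p = 0.153), and without array 4 the Cy3 value was -0.31 (adjusted p = 0.200). The sign of the value over all arrays turned with median centring, where it was -0.11.

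The adult alpha genes, read by probes that share a stretch, gave similar values. HBA1 gave log2 ratios of 1.01, 1.37 and -1.25 on arrays 1, 2 and 4, and its spot on array 3, marked as an outlier and left out of the fit, read -0.85. HBA2 gave 0.88, 1.43 and -1.19 on arrays 1, 2 and 4, and its array 3 spot, left out likewise, read -0.55. For each gene the Cy5 arrays were above 0 and the Cy3 arrays below it. The ratio of HBA1 was 2.29-fold higher with treated RNA in Cy5 (adjusted p = 0.000299) and 2.38-fold lower with treated RNA in Cy3 (adjusted p = 0.000584). The ratio of HBA2 was 2.23-fold higher (adjusted p = 0.000724) and 2.29-fold lower (adjusted p = 0.00169) in the same order. The fitted log2 ratio over both orientations was -0.03 for HBA1 (95% interval -0.26 to 0.21, adjusted p = 0.846) and -0.02 for HBA2 (95% interval -0.30 to 0.26, adjusted p = 0.914). With median centring HBA1 was at -0.30 over all arrays and passed the test (adjusted p = 0.0466). The Cy3 value of both genes rests on array 4 alone, with the spread taken from the other arrays and probes. With processed signals HBA2 passed the test in neither orientation (log2 0.46, adjusted p = 0.233, and -0.73, adjusted p = 0.152).

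HBQ1, the theta-globin gene of the alpha cluster, was not tested, since the outlier spots of arrays 1 and 3 left too few readings. The log2 ratios used were 0.45 from array 2 and -0.31 from array 4, and the spots left out read 0.59 (array 1) and -0.23 (array 3). These values have the sign pattern of HBE1, HBG1, HBZ, HBA1 and HBA2 at a smaller size.

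HBD, which encodes the delta chain of the minor adult hemoglobin, read 23587 in treated and 17251 in control RNA on array 1, and 20068 and 16041 on array 2. On arrays 3 and 4 the treated spots were at 12523 and 9824 and the control spots at 24803 and 23695. Its log2 ratios after normalization were 0.26, -0.31, -0.89 and -1.02 on arrays 1 to 4. Only array 1 lay above 0, and the Cy3 arrays lay below both Cy5 arrays. The fit gave a 1.94-fold lower ratio with treated RNA in Cy3 (log2 -0.95, SE 0.134, adjusted p = 0.000512), against a log2 ratio of -0.03 with treated RNA in Cy5 (SE 0.134, adjusted p = 0.898). Over all arrays HBD was 1.40-fold lower in treated cells (log2 -0.49 ± 0.59, SD, n = 4, fitted SE 0.095, adjusted p = 0.00457). This call was lost without array 4 (log2 -0.46, adjusted p = 0.0594) and in a fit with no dye term (adjusted p = 0.441).

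HBB, the adult beta-globin gene, was read near background, with spots of 505 to 1027 in Cy5 and of 450 to 980 in Cy3, and was well above background on arrays 3 and 4 only in each group. The log2 ratios were -0.17, -0.25, -0.06 and -0.36 on arrays 1 to 4, all slightly below 0 and without a split by orientation. The fitted ratio was -0.21 over all arrays (95% interval -0.38 to -0.04, adjusted p = 0.0562), and it was -0.21 in either orientation (adjusted p = 0.140 in Cy5 and 0.117 in Cy3). Over all arrays HBB passed the test with Feature Extraction's processed signals at -0.46 (adjusted p = 0.0104), and without array 1 at -0.23 (adjusted p = 0.0257). It also passed with loess span 0.7 (log2 -0.23, adjusted p = 0.0418) and with the series table (log2 -0.41, adjusted p = 0.0236). With treated RNA in Cy3, HBB passed the test with processed signals (log2 -0.66, adjusted p = 0.0053) and with the series table (log2 -0.48, adjusted p = 0.0243).

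AHSP was the 1 member called lower in each orientation. Its treated spots read 1097, 1838, 1442 and 1150 on arrays 1 to 4, and its control spots 1721, 1682, 1768 and 2164. Before normalization, treated RNA was the brighter on array 2 alone. The log2 ratios after normalization were -0.66, -0.38, -0.47 and -0.96, below 0 on all 4 arrays, with the orientations overlapping. AHSP was 1.53-fold lower in treated cells over all arrays (log2 -0.62 ± 0.25, SD, n = 4, fitted SE 0.093, adjusted p = 0.00134). It fell by 0.52 on the log2 scale with treated RNA in Cy5 (SE 0.131, adjusted p = 0.0132) and by 0.72 with treated RNA in Cy3 (SE 0.131, adjusted p = 0.00199). The Cy5 call was lost with processed signals (log2 -0.42, adjusted p = 0.083), where AHSP gained a dye term (log2 0.35, adjusted p = 0.0361), and with the series table (log2 -0.50, adjusted p = 0.0737), and the Cy3 call was lost without array 4 (log2 -0.47, adjusted p = 0.0878). The result over all arrays passed the test with any 1 array left out, but not in a fit with no dye term (adjusted p = 0.123). In RNA of a whole culture, fewer cells that make a message and less of it per cell cannot be told apart.

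**Figure D2:**
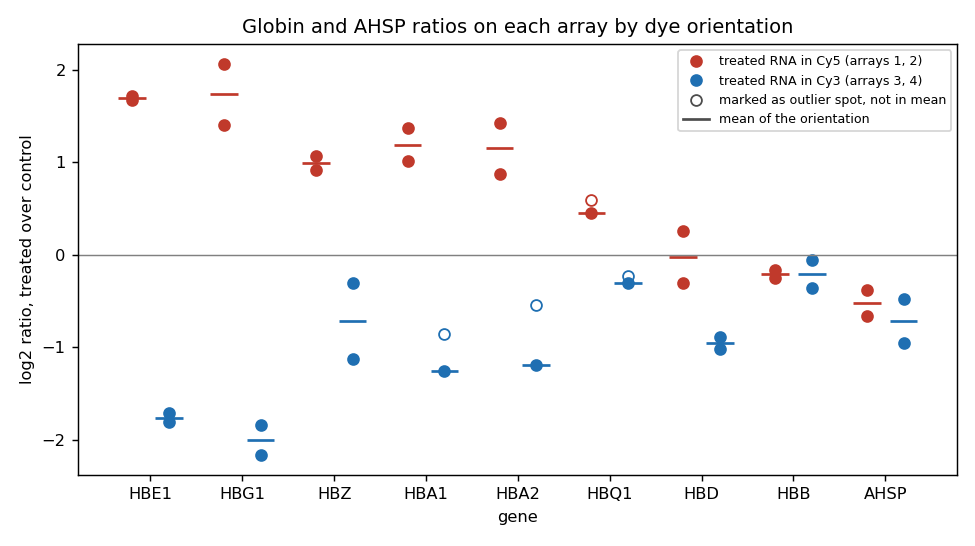
The log2 ratio of treated over control for each gene on each array, with treated RNA in Cy5 in red and in Cy3 in blue. Lines are the means of an orientation and hollow points are spots marked as outliers. HBE1, HBG1, HBZ, HBA1 and HBA2 lay above 0 in red and below 0 in blue, whereas all 4 points of AHSP and of HBB lay below 0.

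Counted over the 8 tested members, none was higher over all arrays, where 24.3% of the 8852 tested probes were, and 2 were lower, where 13.0% of all probes were, so that 2 of 8 were called in either direction beside 37.3% of all probes. The limma test called no member higher at an unadjusted p under 0.05 either, and 3 lower. The median log2 ratio of the members was -0.08, from -0.62 to 0.14, beside 0.02 for all probes. With treated RNA in Cy5, 5 members were higher (22.2% of all probes) and 1 was lower (20.7% of all probes), with a median of 1.07 for the members and 0.03 for all probes. With treated RNA in Cy3, none was higher (33.7% of all probes), also at an unadjusted p under 0.05, and 7 were lower (25.2% of all probes), with a median of -1.07 beside 0.04. In either direction, 6 members were called in the Cy5 orientation (42.9% of all probes) and 7 in the Cy3 orientation (58.9% of all probes). The 5 genes that were higher in the first orientation and lower in the second stand beside 7.83% of all probes with those calls and 20.3% with opposite calls of either order. AHSP was the 1 member called in the same direction in both, as were 8.59% of all probes. Of the 6 members tested and measured on all 4 arrays, HBE1, HBG1 and HBZ were above 0 on arrays 1 and 2 and below it on arrays 3 and 4, as were 21.3% of all probes so measured, and 45.7% of them had the orientations on opposite sides of 0 in either order. HBB and AHSP had the same sign on all 4, as did 25.9% of all probes.

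The difference between the orientations was itself tested as a dye term, the mean log2 ratio of Cy5 over Cy3 after normalization. It passed the test for 6 of 8 members, all brighter in Cy5, where 26.8% of all probes were called brighter in Cy5 and 58.2% were called in either direction. The term of HBG1, 1.87, was the highest of all 8852 probes (adjusted p = 1.1e-05). HBE1 followed with 1.73 (adjusted p = 2.1e-06), a value reached by 3 probes, HBG1 and HBE1 among them. The adult alpha genes and HBZ were also far up this order. HBA1 had a dye term of 1.22 (adjusted p = 7.6e-05), reached by 16 probes, HBA2 one of 1.17 (adjusted p = 0.0002), reached by 22, and HBZ one of 0.86 (adjusted p = 0.00053), reached by 61. HBD stood lower at 0.46 (adjusted p = 0.00342), reached by 463 probes or 5.23% of all. AHSP, at 0.10 (adjusted p = 0.387), did not pass the test, nor did HBB, whose term was -0.00053 (adjusted p = 0.996).

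**Figure D3:**
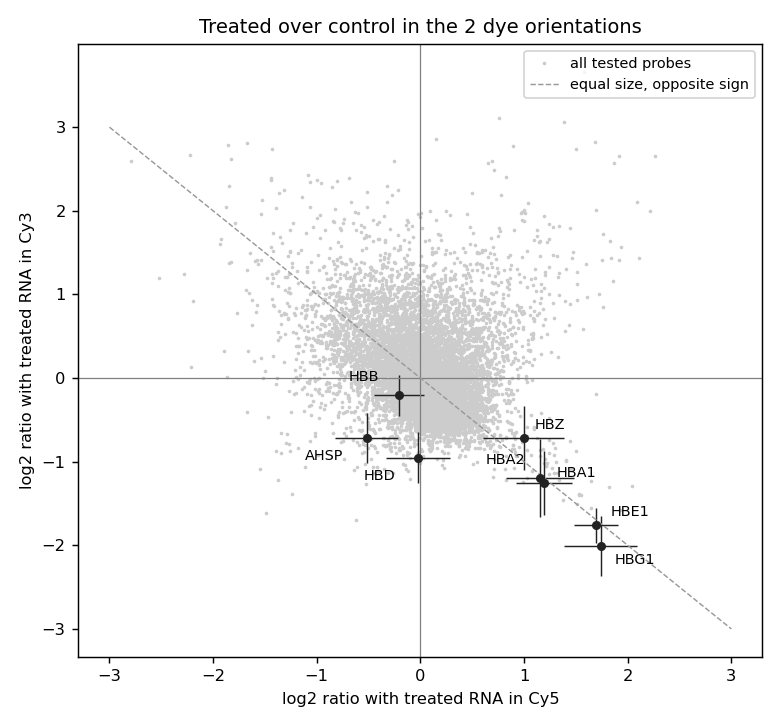
Fitted log2 ratio of treated over control with treated RNA in Cy5 (horizontal axis) and in Cy3 (vertical axis) for the 8 tested members, with 95% intervals from limma, over the 8852 tested probes in grey. HBE1, HBG1, HBZ, HBA1 and HBA2 lie close to the dashed line of equal size and opposite sign, while AHSP lies to the lower left.

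The members with a large dye term had bright spots, though brighter spots did not always go with a larger term. In Cy3, HBZ read 56726 to 107169 with a dye term of 0.86, and HBG1 read 30145 to 53099 with 1.87. HBQ1, which was not tested, read 33851 to 93877 in Cy3. Its normalized log2 ratios of Cy5 over Cy3 were 0.23 to 0.59, outlier spots included. The Cy5 spot was the brighter on all 4 arrays for 7 of 9 members with a probe and for 22.8% of all gene probes. The raw Cy5 over Cy3 ratio ran from 4.14 to 9.89 for HBG1 and from 5.27 to 7.53 for HBE1, against 0.853 to 1.28 for HBB and 0.637 to 1.88 for AHSP. The scanner's extended dynamic range joins a high-gain and a low-gain scan, and the low-gain scan supplied 28 of 36 Cy5 readings and 24 of 36 Cy3 readings of the members, compared with 11.1% and 9.32% of all gene spots. No reading of HBB or AHSP came from it, and of HBD only Cy5 readings did. None of the 36 member spots was saturated. The probes of the members held 45% to 60% G and C, against a median of 43.3% for all tested probes, and G and C content correlated with the dye term at r = 0.60 across the 8852 tested probes, which share the arrays and dyes. Of the members, HBG1 and HBB both held 45%, with dye terms of 1.87 and -0.00053. HBE1 held 50% and AHSP 55%, with dye terms of 1.73 and 0.10. The genes of each of these pairs also differed in brightness. After a further normalization on G and C content the dye term was 1.83 for HBG1 and 1.60 for HBE1. The probes of both lay nearer the median content than those of HBA1 (60%), HBA2 (58.3%) and HBZ (60%). The part of brightness, of the scans and of G and C content in the result was not tested.

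The genes whose ratios ran closest to a median profile of the members were sought by the smallest Euclidean distance over the 4 arrays. The profile was the median of the 6 members measured on all 4, HBE1, HBG1, HBZ, HBD, HBB and AHSP. It was 0.59, 0.41, -0.68 and -1.07 on arrays 1 to 4, smaller in size on each array than the ratio of HBE1 or HBG1. Of 7970 genes compared, RRAS was closest, at a distance of 0.223. It was followed by UTS2R at 0.238, SUV39H1 at 0.250, NINJ2 at 0.276 and ZMYM3 at 0.279. RRAS, a small GTPase gene, read 0.56, 0.32, -0.76 and -0.89. RRAS was picked for its nearness to the median profile, so its change of sign with the dyes follows from that choice. The same signs were found for 21.3% of all probes measured on all 4 arrays.

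Genes that act around the globins in erythroid cells moved otherwise. In lists of globin regulators, heme synthesis and handling, and red cell membrane genes, 53 of 59 genes were tested, of which 29 were lower and 5 higher over all arrays, beside the 13.0% and 24.3% of all probes. Of the 45 measured on all 4 arrays, 19 had the same sign on each, as did 25.9% of all probes so measured. The positive-to-negative split of HBE1, HBG1, HBZ, HBA1 and HBA2 was found for 4 of the 45, beside 21.3% of all probes.

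Of 20 tested globin regulators, 13 were lower and 3 higher, with a median log2 ratio of -0.27. NFE2, whose product is the erythroid subunit of a factor that binds the globin locus control regions, gave -1.24, -1.16 and -1.61 on arrays 2, 3 and 4 (fitted log2 -1.31, adjusted p = 0.00015). Its spot on array 1 was left out as an outlier. GFI1B, a repressor needed in the erythroid lineage, fell by 1.16 on the log2 scale (adjusted p = 4.4e-05), and LMO2, a bridging protein of erythroid transcription complexes, had a log2 ratio of -1.03 (adjusted p = 7.5e-05). MYB, a factor of immature blood progenitors, gave -1.34, -0.56 and -0.77 on arrays 2, 3 and 4, with its array 1 spot left out (adjusted p = 0.000193). MAFG, a small Maf protein that pairs with NFE2, was higher, with 0.53, 1.33, 1.32 and 1.29 on arrays 1 to 4 (fitted log2 1.12, adjusted p = 0.000226). These 5 genes had the largest called ratios of the list, and each had the same sign in both orientations. They were picked for the size of the ratio averaged over both orientations, a choice that favours genes whose orientations share a sign. The size still differed by orientation for some. The dye term passed the test for GFI1B (log2 0.54, adjusted p = 0.00101), MYB (log2 -0.34, adjusted p = 0.0131) and LMO2 (log2 -0.26, adjusted p = 0.0289), and not for NFE2 or MAFG. GFI1B was at -0.62 with treated RNA in Cy5 and at -1.70 with treated RNA in Cy3.

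Of 18 tested heme genes, 9 were lower and 1 higher, with a median log2 ratio of -0.19. SLC25A38, a mitochondrial carrier for glycine, was the gene that rose, with 0.26, 0.29, 0.34 and 0.56 on arrays 1 to 4 (fitted log2 0.36, adjusted p = 0.00425). SLC25A37, which imports iron into mitochondria, fell by 0.35 (adjusted p = 0.00511), and PPOX, an enzyme of heme synthesis, by 0.31 (adjusted p = 0.0202). The heme exporter gene FLVCR1 was lower over all arrays (log2 -0.35, adjusted p = 0.0273), but gave -1.13 and -0.62 with treated RNA in Cy5, and 0.38 and -0.04 with treated RNA in Cy3.

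Of 15 tested red cell membrane genes, 7 were lower and 1 higher, with a median log2 ratio of -0.11. The glycophorin gene GYPE, with -0.65, -0.64, -0.37 and -0.44 on arrays 1 to 4, and CA1, the red cell carbonic anhydrase, with -0.17, -0.55, -0.43 and -0.29, were lower on every array. The glycophorin genes GYPB (log2 -0.60, adjusted p = 0.0014) and GYPC (log2 -0.53, adjusted p = 0.00335) were lower in the fit over all arrays, but each passed the test in 1 orientation and not in the other. GYPB was at -1.18 with treated RNA in Cy5, from array 2 alone because its array 1 spot was an outlier, and at -0.01 with treated RNA in Cy3 (adjusted p = 0.903). GYPC was at -0.19 with treated RNA in Cy5 (adjusted p = 0.278) and at -0.86 with treated RNA in Cy3 (adjusted p = 0.000921). GYPB and GYPE are closely related in sequence, and cross-hybridisation among their probes was not tested.

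**Figure D4:**
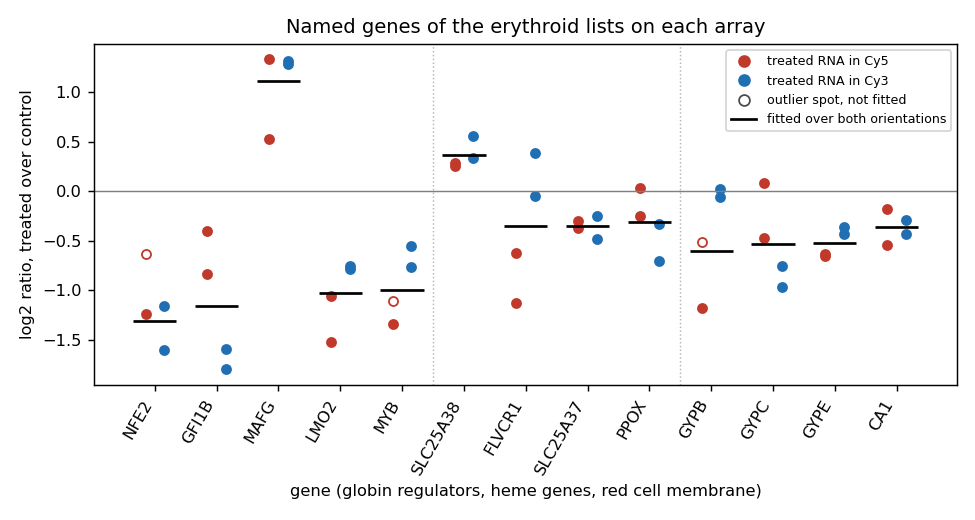
The log2 ratio of treated over control on each array for the named genes of each list, with treated RNA in Cy5 in red, in Cy3 in blue and the fitted value as a black line. Hollow points are outlier spots left out of the fit. NFE2, GFI1B, LMO2 and MYB lay below 0 on every array, whereas FLVCR1 lay lower in red than in blue.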

How the data were processed

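RNA of treated and control K562 cells was compared on 4 two-colour Agilent arrays. The authors scanned them with extended dynamic range, and the deposited files give the intensity of each spot and its local background in both channels, without normalization, as written by Feature Extraction. The deposited files also hold processed intensity values and a log10 ratio made from them. The authors' series table holds log10 ratios, which matched the log10 ratio of each array, turned to treated over control, within 0.001 for 99.9% to 100% of values. Every log2 ratio was computed here from the deposited intensities.

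Background was corrected by normexp with an offset of 50, fitted on every spot, controls were then removed, and each array was normalized by loess (span 0.3). Spots marked as non-uniform or population outliers were excluded. The filter asked that either channel be well above background on 2 or more arrays, and a probe was tested when at least 3 arrays, with both orientations among them, measured it. Ratios were fitted in limma 3.58.1 under R 4.3.3, the model holding terms for treatment and for dye, and p-values were adjusted by the Benjamini-Hochberg method over 8852 probes, with a threshold of 0.05. The limma step was tested on simulated data. Gene names came from the files or, for 12002 probes, from a RefSeq table through the transcript accession. Probe sequences and hg18 positions are those of the files. The same slide held all arrays, so slide and scan date could not be fitted. The number of arrays limits the precision.

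The members and gene lists were chosen with earlier results of these data known. Named genes are all members and the 5 called genes with the largest ratio in each list, of which some are not reported here. Alternatives were other background corrections, processed signals, median centring, loess span 0.7, the series table, other filters, outlier spots kept, no dye term, an intensity-dependent prior, arrays averaged as pairs, each array left out in turn and, chosen after seeing the data, a loess on probe G and C content.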

Additional observations from a re-analysis of the deposited data

Results flagged for a closer look

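The difference between the dye orientations, as the log2 ratio of treated over control with treated RNA in Cy5 minus that with treated RNA in Cy3, passed limma's test of the difference for 6 members. It was 3.74 for HBG1, 3.46 for HBE1, 2.45 for HBA1, 2.35 for HBA2, 1.71 for HBZ and 0.93 for HBD. HBE1, HBG1 and HBZ moved in opposite directions on all 4 arrays according to the dye, HBA1 and HBA2 did so on the 3 arrays fitted, and HBD was above 0 on array 1 only.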

How the results depend on the processing

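HBE1, HBG1 and HBA1 were called higher with treated RNA in Cy5 and lower with treated RNA in Cy3 under every setting that fitted them by orientation, 15 for HBE1 and HBG1 and 12 for HBA1. Each ratio already pairs treated with control RNA on its array. Of the 8 members with a test, none was called higher over all arrays under any setting tried, and the count of lower members, 2, became 4 with median centring, 4 with loess span 0.7 and 0 with no dye term. With treated RNA in Cy5, the 5 higher members became 3 with processed signals and 3 with the series table, and the 1 lower member became 0 with each. The 6 members with a dye term became 3 with the series table. Among the other erythroid genes, the 5 higher became 2 with processed signals, 2 with the series table, 3 when both channels had to be above background on all arrays and 0 with no dye term, and the 29 lower became 18 with median centring, 19 with the series table and 0 with no dye term. Leaving out each array in turn gave 0 to 0 members higher and 1 to 3 lower over all arrays, 3 to 5 higher and 1 to 1 lower in the Cy5 orientation, 0 to 0 higher and 3 to 7 lower in the Cy3 orientation, 4 to 6 with a dye term, and 2 to 6 other erythroid genes higher and 10 to 29 lower. The lowest of these, 10, came without array 4, and 13 came without array 3.

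Small values changed sign. The dye term of HBB was 0.012 with no background subtraction, 0.20 with processed signals, 0.068 with the series table, and from -0.077 to 0.076 when 1 array was left out (0.020 without array 2), and that of AHSP was -0.023 to 0.22 when 1 array was left out and -0.060 after loess on G and C content. Over all arrays, HBZ was -0.0048 with processed signals, -0.11 with median centring, -0.0036 with loess span 0.7 and from -0.065 to 0.34 when 1 array was left out. HBA2 was 0.050 with outlier spots kept, 0.37 with no dye term and 0.077 after loess on G and C content, HBA1 was 0.38 and 0.075 under the last 2, and HBG1 was -0.30 to 0.032 when 1 array was left out. In the Cy5 orientation HBD was 0.19 with median centring and -0.31 to 0.26 when 1 array was left out. The cause was not tested. Where a fit left out an array, members were lost from the test because a spot of theirs was already missing, and 6 members were tested without array 1, 2 or 4. The background spread of arrays 1 and 2 limits what can be said of HBB, which was not well above background there.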

Other observations

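HBM, the mu-globin gene of the alpha cluster, is not among the genes examined above and was looked at after its values were seen. Its probe (chr16:156660-156719 on hg18) gave log2 ratios of 0.15, 0.08, -0.48 and -0.67 on arrays 1 to 4. Both Cy5 arrays were slightly above 0 and both Cy3 arrays below it. HBE1, HBG1, HBZ, HBA1 and HBA2 had that sign pattern at a larger fitted size. In the limma fit HBM was at -0.23 over all arrays (adjusted p = 0.0297), at 0.12 with treated RNA in Cy5 (adjusted p = 0.363) and at -0.58 with treated RNA in Cy3 (adjusted p = 0.00128), and its dye term was 0.35 (adjusted p = 0.00293).

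MB, CYGB and NGB, which encode the globin-fold proteins myoglobin, cytoglobin and neuroglobin of other tissues, had a probe each, and none of these 3 genes passed the filter for the test.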
